A study of Mus musculus with 6 samples.

Results

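The troponin family was followed in aortic RNA of Prdm16 iSM KO and control mice. Its 8 members are the rows of the count table named Tnnt1, Tnnt2, Tnnt3, Tnni1, Tnni2, Tnni3, Tnnc1 and Tnnc2, out of 55487 genes. The family was selected on the rise of Tnnt2 from control to iSM KO in these libraries, so the values of all 8 genes in both groups are given as a description, without a test. In all, 5 members (Tnnt1, Tnnt2, Tnnt3, Tnni3 and Tnnc1) had a count over 10 in every library of at least 1 group and entered the fit over 16565 genes. Tnnt3 and Tnnc1 did so only through the controls, and Tnni3 only through the iSM KO libraries. Tnni1, Tnni2 and Tnnc2 stayed outside the fit.

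Aortas came from 3 Prdm16 iSM KO mice (Myh11-CreERT2; Prdm16 F/F) and 3 controls (Myh11-CreERT2; Prdm16 W/W), all male, on a C57BL/6 background and without further treatment beyond tamoxifen. Both groups thus carried the Cre transgene, and both received tamoxifen from 8 weeks of age at 1 mg per mouse per day, given as 2 series of 5 injections. The aortas were collected once 2 weeks of washout and then 60 days had passed, and the adventitia was removed. Cre is driven by the smooth muscle myosin gene Myh11, so floxed exon 9 of Prdm16 is targeted in smooth muscle cells and not in the other cells of the wall. Ribosomal RNA was depleted before sequencing, and the estimated counts summed to between 24911609 and 40460467 per library. Prdm16, the targeted gene, had 183, 223 and 179 CPM (counts scaled by TMM to the effective size of each library) in Controls 1 to 3 and 93.8, 113 and 79.8 CPM in iSM KO 1 to 3. The difference was -1.03 on the log2 scale (SE 0.14, FDR 0.00265, edgeR's quasi-likelihood test), and it fell short of a fold change of 2 without Control 2 (-0.92) or iSM KO 3 (-0.92). The defining smooth muscle markers Acta2, Myh11, Tagln, Cnn1 and Lmod1 were between 593 and 10634 CPM in every library. In such bulk RNA, fewer cells of a type and less RNA per cell cannot be told apart.

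Troponin is the calcium switch on the thin filament of striated muscle. Troponin T anchors the complex to tropomyosin, troponin I holds actin back from myosin, and troponin C binds calcium and releases that hold. Each subunit has a slow skeletal, a fast skeletal and a cardiac gene, except that slow skeletal and cardiac muscle share 1 troponin C gene, Tnnc1. Smooth muscle contracts without troponin: calcium acts through calmodulin and myosin light chain kinase, with caldesmon and calponin on the thin filament. Tnnt2 encodes the cardiac troponin T that is commonly used as a marker of cardiomyocytes.

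Tnnt2 (ENSMUSG00000026414) lies on the plus strand of chr1:135836354-135852260 of GRCm38 (mm10), and Tnni1, the slow skeletal troponin I gene, lies 25.4 kb upstream on the same strand at chr1:135779434-135810989, with Lad1 between them. Troponin I and T genes lie near each other elsewhere as well. Tnni3, the cardiac troponin I gene (chr7:4518305-4524229), is 1.92 kb from Tnnt1, the slow skeletal troponin T gene (chr7:4504570-4516382), both on the minus strand. Tnni2 (chr7:142441808-142444410) and Tnnt3 (chr7:142498836-142516009), the fast skeletal pair, are 54.4 kb apart on the plus strand. The troponin C genes stand alone, Tnnc1 on the plus strand of chr14:31208312-31211729 and fast skeletal Tnnc2 on the minus strand of chr2:164777161-164779967. The coding sequences of Tnnt1 and Tnnt3 were 67.5% identical, against 62.6% for Tnnt1 and Tnnt2 and 58.9% for Tnnt2 and Tnnt3. No transcript of a member had a stretch of 100 bp or more at 95% identity in another troponin gene. Such a stretch, of 151 bp, linked Tnnc2 to Ube2c, a ubiquitin-conjugating enzyme gene on the opposite strand that also overlaps 592 bp (74.0%) of the exons of Tnnc2, so the counts of Tnnc2 are uncertain. Tnni3 shares 86 bp (4.17%) of its exons with Dnaaf3 on the same strand.

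Promoter sequences were matched for 6 of the 8 genes in RefSeq (GRCm38.p6), with no entry for Tnnt3 and Tnni2. The 250 bases before the start site are shown for Tnnt2, the member with the largest difference, and for Tnnc1, the other cardiac member with a match to MCAT, the element that TEAD factors recognize. Capitals mark matches to MCAT (GGAATG) and to the GATA motif (AGATAA), read on both strands, and the sequences run 5′ to 3′ on the strand of the gene.
Tnnt2 (chr1:135836084-135836333, plus strand): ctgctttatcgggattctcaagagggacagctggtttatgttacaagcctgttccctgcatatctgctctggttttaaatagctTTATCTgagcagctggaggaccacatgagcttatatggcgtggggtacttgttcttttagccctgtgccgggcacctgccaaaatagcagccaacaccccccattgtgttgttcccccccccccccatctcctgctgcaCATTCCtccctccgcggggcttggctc
Tnnc1 (chr14:31208062-31208311, plus strand): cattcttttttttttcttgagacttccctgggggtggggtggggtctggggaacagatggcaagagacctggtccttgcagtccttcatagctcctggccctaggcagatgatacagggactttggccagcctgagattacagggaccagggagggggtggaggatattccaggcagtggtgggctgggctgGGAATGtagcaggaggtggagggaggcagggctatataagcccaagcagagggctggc

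The Tnnt2 window held 1 MCAT match on the minus strand, 27 bases upstream of the start site, and 1 GATA match on the minus strand, 166 bases upstream. It also held 4 E-boxes (CANNTG, not capitalized) and no TATA box (TATAAA), CArG box or MEF2 box. The MCAT match of Tnnc1 lay on the plus strand, 58 bases upstream. Of 32851 windows of the same length, 12.64% held an MCAT match, 9.988% a GATA match, 12.37% a TATA box and 66.22% an E-box, which is thus common anywhere. A CArG box was present in 1.467% and a MEF2 box in 1.689% of them. A second annotated start of Tnnt2, and both starts of its neighbour Tnni1, had E-boxes but no match to the other motifs. Tnnt1 had a TATA box 30 bases upstream and 1 E-box, and Tnni3 and Tnnc2 held only E-boxes. A match is a description of letters, and binding was not measured here.

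Tnnt2, the cardiac troponin T gene, had by far the largest difference of the 8 members. It was counted 586, 409 and 322 times in Controls 1 to 3, and 28822, 24513 and 27173 times in iSM KO 1 to 3. After scaling this came to 17.5, 10.6 and 13.5 CPM in the controls and to 707, 702 and 744 CPM in the iSM KO libraries. Every iSM KO library was far above every control, with no overlap. The controls averaged 13.9 ± 3.44 CPM, and the iSM KO aortas 718 ± 22.7 CPM (n = 3 each, SD), a ratio of 51.7 and a log2 fold change of 5.69 (SE 0.19, 95% confidence interval 5.27 to 6.11). With the libraries left out in turn the log2 fold change stayed between 5.53 and 5.91. Of the 5 fitted members 1, Tnnt2, passed the threshold of an FDR under 0.05 and a fold change over 2, as did 2.78% of all tested genes (1.40% higher and 1.38% lower). As the family was chosen with this change known, nothing is read from that count.

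**Figure D1:**
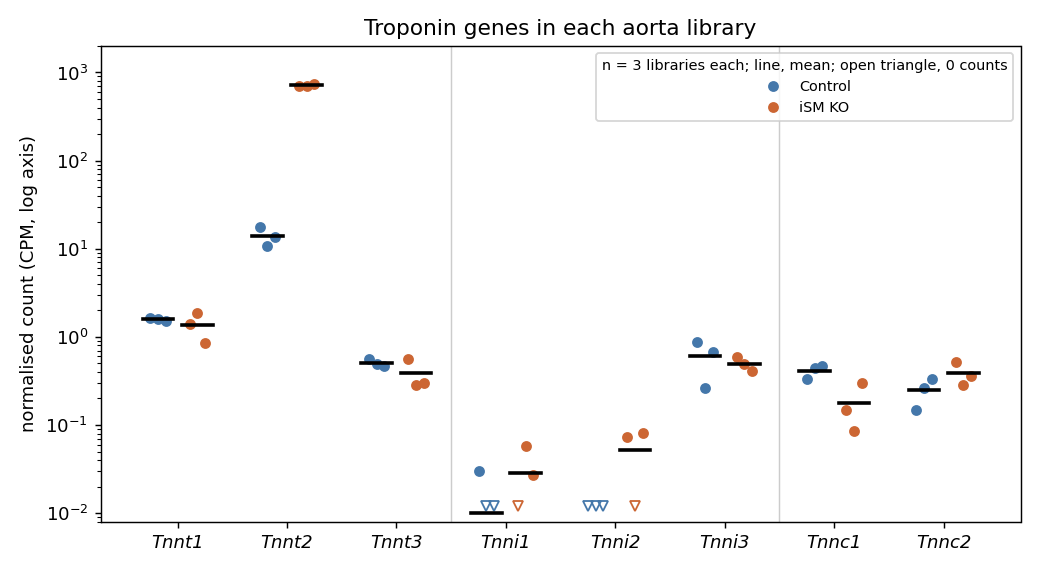
Normalized counts (CPM, log axis) of the 8 troponin genes in each of 3 control and 3 iSM KO libraries, with black lines for group means and open triangles for libraries with 0 counts. Tnnt2 stands at 702 to 744 CPM in iSM KO libraries and at 10.6 to 17.5 CPM in controls, while the other genes stay under 2 CPM in all 6 libraries.

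Tnnt2 was also counted in the controls. The lowest control count, 322, is far from 0, so reads of Tnnt2 were also found in libraries of mice with intact Prdm16 alleles. The source of these reads was not tested. The spread was unequal between the groups. The coefficient of variation was 24.8% among controls, where counting error alone gives 4.77%, and 3.16% among iSM KO libraries, where counting error gives 0.610%. Control 1 was the highest and Control 2 the lowest of the controls. Among controls, Control 1 was also highest in CPM for Tnni3 and for the cardiac genes Myh6, Myl2, Mybpc3 and Mb. Myl2 and Mybpc3 had only 8 and 9 counts there. Control 2, the lowest for Tnnt2, was highest for Ryr2, Ldb3, Xirp1, Ttn, Ankrd1 and Myl4, and Control 3 for Nppa and Tcap. Cardiac genes thus did not all follow the order of Tnnt2 among controls. The part of this in the spread of Tnnt2 was not tested.

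By log2 fold change Tnnt2 ranked 4th among the genes tested, a description of the same contrast. Ahead of it were Gm45193 (7.70) and Gm9954 (7.33), both at 0 counts in all controls, so that their fitted values depend on the prior count, and the serotonin receptor gene Htr1d (6.46). Zfp990, a zinc finger gene with 3 counts in all controls together, followed at 5.63. The iSM KO means of these 4 genes, in the same order, were 0.749, 0.578, 4.92 and 1.74 CPM. All 4 entered the fit only through the iSM KO libraries, where they were higher, so nothing is read from their ranks.

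The other troponin T genes stayed low. Tnnt1 had 1.64, 1.61 and 1.51 CPM in Controls 1 to 3 and 1.40, 1.86 and 0.849 CPM in iSM KO 1 to 3, and the groups overlapped (log2 fold change -0.22, 95% confidence interval -0.90 to 0.47). With the libraries left out in turn it ran from -0.50 without iSM KO 2 to 0.03 without iSM KO 3. Its total of 153 counts was the same in both groups. Tnnt3, the fast skeletal gene, had 19, 19 and 11 counts in controls and 23, 10 and 11 in iSM KO libraries, again with overlap (log2 fold change -0.39). Without iSM KO 1, its highest iSM KO library, the value was -0.79. Tnnt3 spans Prr33 on the other strand, and their exons share no base. Tnnt2 thus made up most of the troponin T counts, uncorrected for length, in either group: 88.8% in Control 1 (Wilson 95% interval 86.2% to 91.0%), 83.5% in Control 2 and 87.3% in Control 3, against 99.7%, 99.7% and 99.8% in the iSM KO libraries. These intervals cover counting error only.

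The troponin I genes had few counts in either group. Tnni1, its neighbour, had 1, 0 and 0 counts in controls and 0, 2 and 1 in iSM KO libraries. Tnni2, the fast skeletal gene, had 0 counts in all 3 controls and 3, 0 and 3 counts in iSM KO libraries. A count of 0 allows up to 3 counts, between 0.0736 and 0.126 CPM in these libraries, and neither gene exceeded 3 counts anywhere, so a difference was not detectable at this depth. Tnni3, which encodes the cardiac partner of Tnnt2, had 29, 10 and 16 counts in controls and 24, 17 and 15 in iSM KO libraries. This corresponds to 0.866, 0.260 and 0.671 CPM against 0.589, 0.487 and 0.411 CPM, and all iSM KO values fell within the range of the controls. Its log2 fold change was -0.24 (95% confidence interval -1.26 to 0.77). It ran from -0.63 without Control 2 to 0.18 without Control 1, so even its sign rests on single libraries.

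The troponin C genes were low as well. Tnnc1, shared by cardiac and slow skeletal muscle, had 11, 17 and 11 counts in controls and 6, 3 and 11 in iSM KO libraries. In CPM these were 0.328, 0.442 and 0.461 against 0.147, 0.0860 and 0.301, so each iSM KO library lay below each control, although iSM KO 3 came close to Control 1. The log2 fold change was -1.18, and it was -1.76 without iSM KO 3. As Tnnc1 entered the fit only through the controls, where it was higher, nothing is read from this value. Groups that do not overlap were found for 2 of the 5 fitted members, Tnnt2 and Tnnc1, and for 27.9% of all tested genes. Tnnc1 overlaps Nisch, which lies on the other strand and shares no exon base with it. Tnnc2 had 5, 10 and 8 counts in controls and 21, 10 and 13 in iSM KO libraries, and these groups overlapped at 0.149 to 0.335 CPM and 0.287 to 0.515 CPM. The 7 genes other than Tnnt2 together reached 3.07 to 3.58 CPM in controls and 2.33 to 3.29 CPM in iSM KO libraries.

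Levels of different genes were compared per length, as RPKM, which is the CPM divided by the length of the annotated exons in kilobases. In controls the order was Tnnt2 at 1.79 ± 0.44, Tnnt1 at 0.721 ± 0.032, Tnnc1 at 0.394 ± 0.069, Tnnt3 at 0.321 ± 0.034, Tnnc2 at 0.310 ± 0.117 and Tnni3 at 0.290 ± 0.150 RPKM (SD, n = 3). The ranges of Tnnc1, Tnnt3, Tnnc2 and Tnni3 overlapped, so only Tnnt2 and Tnnt1 stood clear of the next gene. Tnni1 followed at 0.00276 RPKM, and Tnni2 was at 0 counts. In iSM KO aortas Tnnt2 had 92.6 ± 2.93 RPKM, and next came Tnnt1 at 0.622 ± 0.230 and Tnnc2 at 0.482 ± 0.147, which overlapped. Tnnt3 at 0.243 ± 0.099, Tnni3 at 0.240 ± 0.043 and Tnnc1 at 0.171 ± 0.107 overlapped as well, ahead of Tnni2 at 0.0347 and Tnni1 at 0.00784 RPKM.

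The length chosen matters for Tnnt2, whose annotated exons span 7752 bp, while its longest transcript has 3330 bp and its principal coding transcript 1200 bp. Over the principal transcript Tnnt2 had 11.6 ± 2.87 RPKM in controls and 598 ± 18.9 RPKM in iSM KO aortas. On that scale its iSM KO level lay between those of the tropomyosin genes Tpm1 (710 ± 64.4 RPKM) and Tpm2 (438 ± 12.7 RPKM), to whose proteins troponin T binds. Over all exons it lay below both, at 92.6 against 208 and 316 RPKM. Summed over their genes and all exons, troponin T was 7.85, 19.2 and 8.36 times as high as troponin I in Controls 1 to 3 and 276, 364 and 369 times as high in iSM KO 1 to 3. Against troponin C the ratios were 6.69, 3.22 and 3.15 in controls and 117, 208 and 131 in iSM KO libraries. Over the principal transcripts the ratios to troponin I were 17.2, 38.3 and 17.9 in controls and 797, 1006 and 1069 in iSM KO libraries, and those to troponin C were 25.03, 11.1 and 11.8 against 629, 1111 and 671. The transcripts of the 3 subunits were thus unequal in controls and far more so in iSM KO aortas.

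**Figure D2:**
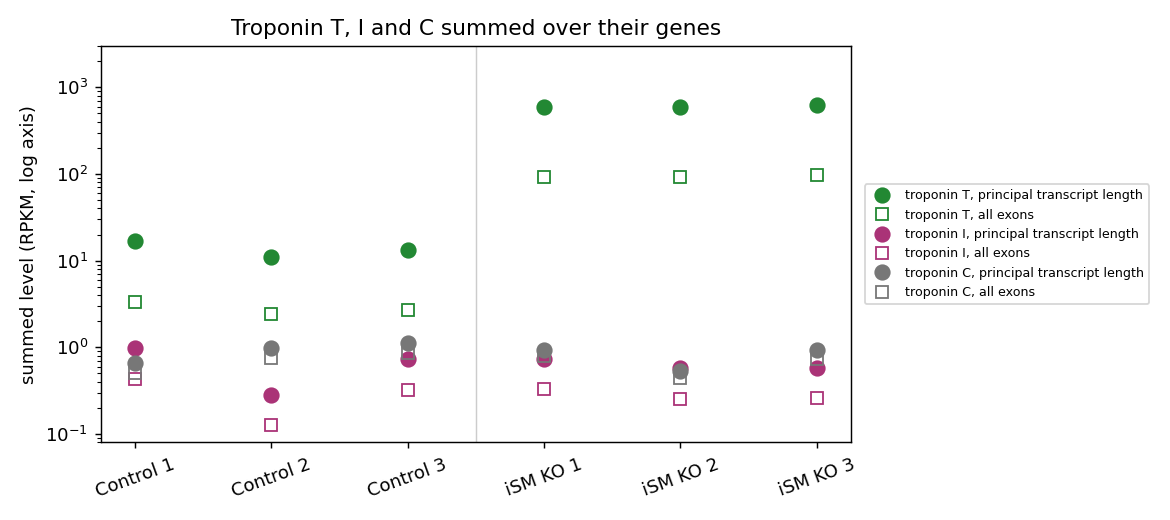
Summed level (RPKM, log axis) of the troponin T, I and C genes in each library, over the principal transcript length (filled circles) and over all annotated exons (open squares). Troponin T moves from 2.42 to 3.36 RPKM over all exons in controls to 91.6 to 96.5 RPKM in iSM KO libraries, while troponin I stays between 0.126 and 0.428 and troponin C between 0.441 and 0.862 RPKM.

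The genes around Tnnt2 did not share its difference in size. Within 0.5 Mb of it lie 33 other annotated genes, of which 13 were tested and 0 passed the threshold by edgeR's quasi-likelihood test, DESeq2 or limma-voom. By edgeR 2.78% of all tested genes passed, so 0 of 13 does not set the neighbours apart. At an unadjusted p under 0.05 there were 5, and their number with an FDR under 0.05 at any fold change was 2, against 7.56% of all tested genes. The share of all tested genes at an unadjusted p under 0.05 is not given here and cannot be below those 7.56%. Counts at that level, here and for the lists below, thus stand without a baseline, and nothing is read from them. Nav1, a neuron navigator gene, had 147, 144 and 120 CPM in controls and 181, 198 and 176 CPM in iSM KO libraries (log2 fold change 0.43, SE 0.10, FDR 0.0289). Phlda3, a pleckstrin homology gene, had 26.9, 31.4 and 30.1 CPM against 36.8, 37.7 and 39.2 CPM (log2 fold change 0.36, SE 0.08, FDR 0.0341). Neither kept an FDR under 0.05 without iSM KO 1 or iSM KO 2, where the FDR of Nav1 was 0.0862 and 0.151 and that of Phlda3 0.0909 and 0.142. That of Phlda3 was also above 0.05 without Control 1 (0.0779), Control 3 (0.0718) or iSM KO 3 (0.106).

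Csrp1, which encodes a LIM protein abundant in smooth muscle, had 1175 CPM in the control group against 923 CPM in iSM KO (log2 fold change -0.35, FDR 0.0527). Lmod1, the smooth muscle leiomodin gene, had a log2 fold change of 0.12 (FDR 0.613). The remaining 9 were Shisa4 (0.23), Ipo9 (0.04), 2610012C04Rik (0.32), Gm37333 (0.28), Gm4793 (0.74), Pkp1 (0.29), Tmem9 (-0.21), Kif21b (-0.39) and Camsap2 (-0.02), each as a log2 fold change with an FDR above 0.05. Other fits brought further neighbours under an FDR of 0.05, all short of a fold change of 2: Csrp1 with DESeq2 (0.00254), limma-voom (0.0331), no filter on low counts (0.0439) or without Control 3 (0.0357), and Kif21b without iSM KO 3 (-0.64, FDR 0.0329). The median of the 13 was 0.23, beside -0.014 over all genes tested. Lad1, whose start site is 17.8 kb from that of Tnnt2, was too low to be tested, with at most 0.258 CPM, as was Tnni1.

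**Figure D3:**
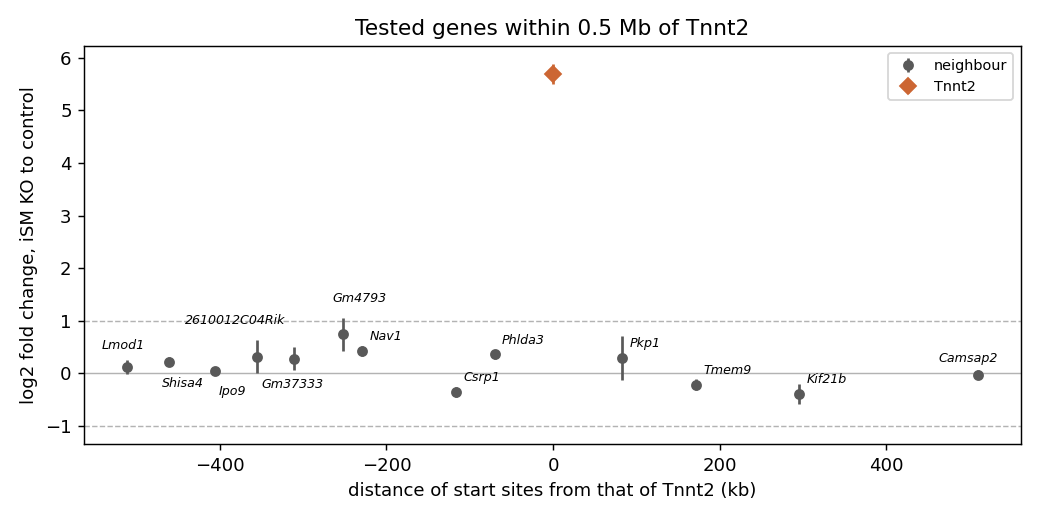
Log2 fold change from control to iSM KO (points, with bars for 1 SE) of Tnnt2 and the 13 tested genes within 0.5 Mb, against the distance of their start sites in kb. Dashed lines mark a fold change of 2, and the neighbours stay between -0.39 and 0.74 while Tnnt2 is at 5.69.

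Across the 6 libraries, the genes whose log2 CPM followed that of Tnnt2 most closely were Ift140, a gene of intraflagellar transport (Pearson's r 0.9990), the acyltransferase gene Agpat4 (0.9986), the coagulation factor XIII A gene F13a1 (0.9983), the proton pump subunit gene Atp6v0e2 (0.9983) and the elongation factor gene Eef1a2 (0.9979). These are descriptions over 6 libraries that fall into the 2 groups compared, and 388 tested genes had an r of at least 0.95. The sizes of change were unlike. Eef1a2 had 2.60, 1.95 and 2.89 CPM in Controls 1 to 3 and 38.9, 39.2 and 38.0 CPM in iSM KO 1 to 3, and F13a1 11.3, 9.03 and 10.6 CPM against 89.2, 82.3 and 104 CPM. Ift140 went from a mean of 22.1 to 26.4 CPM, with a log2 fold change of 0.26.

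The partners of troponin on the thin filament moved in both directions. Of 17 listed genes, 15 were tested, and 3 rose and 2 fell past the threshold, with a median log2 fold change of 0.00. Over all tested genes, 1.40% rose and 1.38% fell past it, and these shares stand beside each list below. Leiomodin 2 (Lmod2), an actin nucleator of cardiac muscle, had 2, 0 and 2 counts in controls and 22, 20 and 13 in iSM KO libraries (log2 fold change 3.42, SE 0.66, FDR 0.0152). Tropomodulin 1 (Tmod1), which caps the pointed end of the filament, went from 14.6 ± 3.36 to 35.5 ± 3.48 CPM (SD, n = 3; log2 fold change 1.28, FDR 0.00208). Smooth muscle gamma actin (Actg2) went from 128 ± 12.6 to 294 ± 29.3 CPM (log2 fold change 1.20, FDR 3.57e-04). Nebulin (Neb) fell from 6.10 ± 1.46 to 2.79 ± 0.287 CPM (log2 fold change -1.13, FDR 0.0131) and nebulette (Nebl), its cardiac relative, from 15.7 ± 0.527 to 5.78 ± 0.620 CPM (log2 fold change -1.44, FDR 1.85e-04).

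Lmod2 was no longer past the threshold without iSM KO 1 (3.34, FDR 0.0513) or iSM KO 2 (3.30, FDR 0.0640), nor was Neb without Control 2 (-0.996), Control 3 (-1.05, FDR 0.0540) or iSM KO 2 (-1.19, FDR 0.0515). Without iSM KO 2 the list thus held 3 called genes. Lmod2 entered the fit only through the iSM KO libraries, where it was higher, so nothing is read from its call. None of the tropomyosin genes passed: Tpm1 had a log2 fold change of 0.18, Tpm2 of -0.10, Tpm3 of 0.00 and Tpm4 of 0.27 (FDR 0.0757). Cardiac actin (Actc1) had 1.82, 1.28 and 0.713 CPM in controls and 0.712, 0.573 and 0.246 CPM in iSM KO libraries, a log2 fold change of -1.32 with an FDR of 0.127. It entered the fit only through the controls.

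The branch through which smooth muscle responds to calcium included genes at high levels in both groups. Of 19 genes for calmodulin, myosin light chains, their kinases and phosphatase, caldesmon and calponins, 18 were tested. Of these, 0 passed the threshold by edgeR's quasi-likelihood test, DESeq2 or limma-voom, beside 2.78% of all tested genes by edgeR. At an unadjusted p under 0.05 there were 5, and the median log2 fold change was 0.10. Myosin light chain kinase (Mylk) had 1695 ± 94.6 CPM in the control group against 2082 ± 45.7 CPM in iSM KO aortas (log2 fold change 0.30, FDR 0.104), and caldesmon (Cald1) 1353 ± 85.6 against 1454 ± 19.1 CPM (0.10, FDR 0.555). The listed kinase genes Mylk2 (means of 20.3 against 17.9 CPM) and Mylk3 (0.128 against 0.0892 CPM, too low to be tested) were far below Mylk. Only calponin 3 (Cnn3) had an FDR under 0.05, at a log2 fold change of 0.42 (FDR 0.0109). In the overlapping list of 18 smooth muscle contraction genes, 2 rose and 0 fell past the threshold, with a median of 0.13. They were Actg2 and desmin (Des), an intermediate filament gene of all muscle, which went from 138 ± 29.0 to 325 ± 58.6 CPM (log2 fold change 1.24, FDR 0.00381). Myocardin (Myocd), a coactivator of SRF in smooth and cardiac muscle, had 216, 206 and 162 CPM against 329, 296 and 290 CPM (log2 fold change 0.65, FDR 0.0109), short of a fold change of 2.

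Of 10 kinases known to act on troponin I, 0 rose and 1 fell past the threshold, with a median of 0.19. That gene was Tnni3k, a cardiac kinase named for its binding to cardiac troponin I, with 89, 89 and 49 counts in controls and 11, 10 and 11 in iSM KO libraries (log2 fold change -3.02, SE 0.27, FDR 3.84e-04). It moved against Tnnt2 and passed with each library left out. With all 6 libraries Tnni3k entered the fit only through the controls, where it was higher, so nothing is read from its call. The catalytic subunit gene Prkacb of protein kinase A had a log2 fold change of 0.37 (FDR 0.0348) and protein kinase D1 (Prkd1) of -0.61 (FDR 0.00797), both short of a fold change of 2.

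Among 21 transcription factor genes known to act in the heart, 16 were tested, and 7 had an unadjusted p under 0.05. By edgeR's quasi-likelihood test or limma-voom 0 passed, beside 2.78% of all tested genes by edgeR. DESeq2 called 1, Gata4, which had 23, 17 and 7 counts in controls and 84, 25 and 46 in iSM KO libraries (log2 fold change 1.48, FDR 0.0918 by edgeR and 0.0394 by DESeq2). Gata4 entered these fits only through the iSM KO libraries, where it was higher, so nothing is read from that call. The median of the list was 0.17. The TEAD genes, whose proteins bind MCAT, had log2 fold changes of 0.34 (Tead1), 0.00 (Tead2), 0.29 (Tead3) and -0.66 (Tead4), none with an FDR under 0.05. Nkx2-5, a cardiac homeobox gene, had at most 5 counts in any library.

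Markers of the heart moved unevenly beside Tnnt2. Of 26 cardiomyocyte genes 17 were tested, and 3 rose and 0 fell past the threshold, with a median of 0.32. Over all tested genes 1.40% rose and 1.38% fell. Sarcolipin (Sln), a small inhibitor of the calcium pump, had 0, 1 and 0 counts in controls and 32, 27 and 15 in iSM KO libraries (log2 fold change 5.56, FDR 0.0027). Its ratio of summed counts, scaled for depth, was 63.2, with an exact interval of 11.0 to 2529 for counting error. Ankrd1, a stretch-responsive ankyrin repeat gene, had 5.79, 7.86 and 5.12 CPM against 48.6, 55.1 and 39.0 CPM (log2 fold change 2.91, FDR 5.96e-05). Cardiac myosin binding protein C (Mybpc3) had 9, 1 and 0 counts against 74, 55 and 30 (log2 fold change 3.72, FDR 0.0169). The value of Mybpc3 was 6.18 without Control 1, and it missed the threshold without Control 3 (3.28, FDR 0.0503), iSM KO 1 (3.48, FDR 0.0548) or iSM KO 2 (3.63, FDR 0.0640). Sln and Mybpc3 entered the fit only through the iSM KO libraries, where they were higher, so nothing is read from their calls. Of the genes that rose, only Ankrd1 entered through both groups. Short of a fold change of 2 but with an FDR under 0.05 were Actn2 (0.78), Ryr2 (0.50) and Ldb3 (0.59), which were higher, and Tcap (-0.93), which was lower. Tcap was called lower without Control 2 (-1.12).

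Mybpc3, which rose, is 1 of 5 defining markers of cardiomyocytes in the list, and all 5 stayed under 2 CPM in all libraries. The other 4 did not pass the threshold or were too low to be tested. Atrial myosin light chain (Myl7) had 0 counts in 5 libraries and 2 in iSM KO 3, and ventricular Myl2 had 8 in Control 1, 1 in iSM KO 3 and 0 in the rest. Cardiac myosin heavy chain (Myh6) had 1.79, 0.726 and 0.399 CPM in controls and 0.370, 0.458 and 0.782 CPM in iSM KO libraries, a log2 fold change of -0.88 (FDR 0.369), and Nppa stayed at or under 0.430 CPM. In 4 of the 26 genes no library exceeded 3 counts. The summed level of the list was 593 to 696 CPM in controls and 674 to 841 CPM in iSM KO libraries, without Tnnt2, which is not in the list. Most of that sum came from Tcap, Ryr2, Ldb3 and Xirp1, and not from the defining markers. Their means in the same order were 232, 127, 114 and 112 CPM in controls and 122, 180, 172 and 181 CPM in iSM KO aortas. Of 20 skeletal muscle markers, 5 were tested and Mybpc2 fell (log2 fold change -2.17, FDR 0.00543), with a median of 0.14. The skeletal myosin genes Myh1, Myh2 and Myh4 had 0 to 2 counts in every library, and the list summed to 36.1 to 52.5 CPM in controls and 44.6 to 51.9 CPM in iSM KO libraries.

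**Figure D4:**
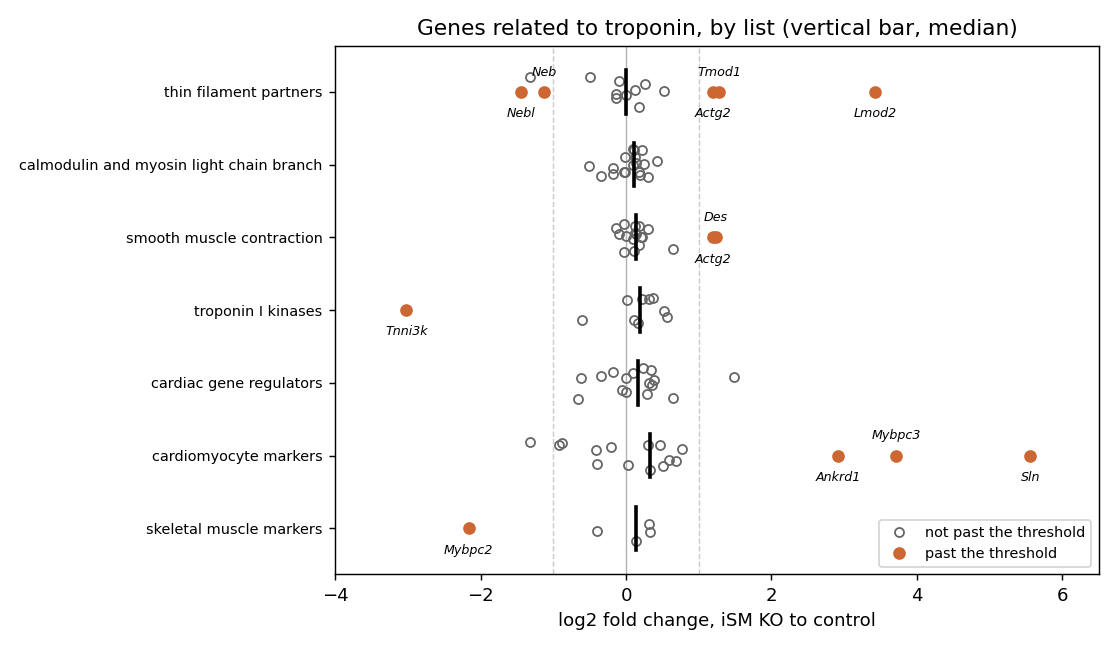
Log2 fold changes of the tested genes of 7 lists related to troponin, with filled points past the threshold, open points not past it and bars for the median of each list. Most genes sit near 0, and the genes that rose past the threshold are Lmod2, Tmod1, Actg2, Des, Sln, Ankrd1 and Mybpc3. Of these, Lmod2, Sln and Mybpc3 entered the fit only through the iSM KO libraries.

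Markers of other cells of the wall differed between the libraries as well. Of 8 adipocyte genes 7 were tested and 5 fell past the threshold (Adipoq, Plin1, Cidec, Cidea and Fabp4), with a median of -2.80. Over all tested genes 1.38% fell. Adipoq entered the fit only through the controls, where it was higher, so nothing is read from its call. Fabp4, a fatty acid carrier, went from 42.3 ± 19.4 to 6.54 ± 1.23 CPM (log2 fold change -2.69, FDR 0.00233). The number of calls was 3 without Control 2 or Control 3, 2 without iSM KO 1 and 1 without iSM KO 2. The list summed to 506 to 576 CPM in controls and 467 to 555 CPM in iSM KO libraries, and Plin4 gave most of that sum. For endothelial cells (9 genes), fibroblasts (8), macrophages (7) and Schwann cells (3 of 5 tested), 0 genes passed by edgeR's quasi-likelihood test, DESeq2 or limma-voom. In these lists 1, 7, 2 and 0 genes had an unadjusted p under 0.05, again without a share over all tested genes. Their medians were -0.61, -0.60, -0.60 and 0.17. The fibroblast gene Cd248 went the other way from its list, with a log2 fold change of 0.37, and was the only fibroblast gene with an FDR under 0.05 (0.0265). Fibroblast markers summed to 1019 to 1272 CPM in controls and 802 to 821 CPM in iSM KO libraries. Col1a1 gave most of that sum. It had 753, 966 and 1078 CPM in Controls 1 to 3 and 689, 657 and 633 CPM in iSM KO 1 to 3. The groups overlapped for Pdgfra, Dpt, Lum, Serpinf1 and Dpep1, but not for Col1a1, Pi16 or Cd248. Over all tested genes, 27.9% had groups that do not overlap. Endothelial markers summed to 574 to 1121 CPM in controls and 320 to 856 CPM in iSM KO libraries. Macrophage markers summed to 28.0 to 33.8 and 11.5 to 32.6 CPM, and Schwann cell markers to 3.80 to 5.94 and 3.47 to 8.35 CPM. Without iSM KO 3, which had the highest endothelial and macrophage sums of its group, 2 endothelial, 1 fibroblast and 5 macrophage genes were called lower, and without Control 2, 2 fibroblast genes. The part of these cell markers in the values of the troponin genes was not tested.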

How the data were processed

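Total aortic RNA of 3 controls and 3 Prdm16 iSM KO mice was sequenced as paired ends after ribosomal depletion. According to the study's methods, reads were mapped and quantified with Illumina DRAGEN against the mm10 genome and Ensembl release 101. The values the authors deposited are estimated counts per gene, neither normalized nor filtered. The strand setting and the sharing of reads between genes are not given in the sources used here. Between 10.9% and 12.2% of a library's values were not whole, but those of the 8 troponin genes were.

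Estimated counts were rounded, and the 16565 genes that exceeded 10 counts in each library of 1 or both groups were fitted with edgeR 4.0.16 (R 4.3.3, TMM factors, quasi-likelihood test, all 6 libraries, no covariates, Benjamini-Hochberg adjustment). A call needs an FDR under 0.05 and a fold change over 2. The study used DESeq2, which served here as an alternative (1.42.0), as did limma-voom (limma 3.58.1), DESeq2's size factors, no filter, filterByExpr, a replicate block, leaving out each library, other transcript lengths, other windows and a prior count of 0.5. Principal transcript lengths were chosen after seeing the data. CPM use effective library sizes, RPKM the union of annotated exons (GENCODE on GRCm38), and correlations log2 CPM with a prior count of 2. Near-identical stretches were sought with blastn 2.17.0. No pair of replicates agreed within sampling noise. The study's methods name 3 mice per group, and each library was taken as 1 mouse. Controls are numbered as in the deposited columns; the study's supplementary gene table appears to order them differently, which leaves the groups as they are but makes the control numbers, and the replicate block, uncertain.

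The scripts were tested on simulated data. The genes named are the 8 troponin genes, Prdm16, tested genes within 0.5 Mb of Tnnt2, listed genes past the threshold, defining markers, the 5 largest rises and the 5 genes most like Tnnt2; other listed genes were named after their values were seen. The members and the 12 lists were chosen with earlier results of these data known. Groups of 3 were too small for a check of single outlying libraries, and an exact permutation test of 3 against 3 cannot go below a two-sided p of 0.1. Protein sequences, splicing and exon-level reads were not analysed here.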

Additional observations from a re-analysis of the deposited data

How the results depend on the processing

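The log2 fold change of Tnnt2 ran from 5.53 to 5.91 over 12 other fits, and 0 neighbours passed the threshold under any of them or within 0.2 Mb or 1 Mb. With libraries left out in turn, the genes called lower numbered 128 (without iSM KO 2) to 317 instead of 229, and there were 349 with no filter on low counts. The same runs gave log2 fold changes of -0.79 to -0.23 for Tnnt3 and of -1.76 to -0.87 for Tnnc1. They left 0 to 2 neighbours with an FDR under 0.05, not always the same genes, and called 3 to 5 thin filament partners, 1 to 7 adipocyte, 0 to 2 endothelial, 0 to 2 fibroblast and 0 to 5 macrophage genes. The number of neighbours with an FDR under 0.05 was 1 within 0.2 Mb and 4 within 1 Mb. Limma-voom called 2 adipocyte genes. No filter added 1 macrophage gene (Mrc1) and 1 cardiac regulator (Gata4), and DESeq2 also called 1 regulator, Gata4.

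Under the deposited numbering, deviations of same-numbered libraries correlated at -0.13, -0.046 and -0.11. As the control numbers are uncertain, this cannot decide whether the libraries were paired. Fitting the replicate number as a block gave 188 genes higher and 165 lower instead of 232 and 229, 1 neighbour with an FDR under 0.05 and 3 called adipocyte genes, and Lmod2 lost its call.

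RPKM rest on the length used. With the longest transcript, controls had 1.50 for Tnnt1, 4.17 for Tnnt2, 0.470 for Tnnt3, 0.657 for Tnni3 and 0.570 for Tnnc1, and iSM KO aortas had 1.29 for Tnnt1, 216 for Tnnt2, 0.356 for Tnnt3 and 0.543 for Tnni3. With the principal transcript, controls had 1.55, 11.6, 0.504, 0.657 and 0.570 for the same genes and 0.00865 for Tnni1, and iSM KO aortas had 1.33 for Tnnt1, 598 for Tnnt2, 0.381 for Tnnt3, 0.543 for Tnni3, 0.0245 for Tnni1 and 0.0676 for Tnni2. The causes of these shifts other than the length itself and the removal of samples were not tested. The 7 members other than Tnnt2 rest on at most 65 counts in a library, so modest differences in them were not detectable at this depth.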
